A study of Mus musculus with 6 samples.

Results

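The regions described here are ATACseq peaks that GL261 cells held at 21% O2 and again in severe hypoxia (<0.1% O2), but not in moderate hypoxia (1% O2). They were chosen by the presence of peaks. In each O2 condition the peaks of the 2 replicate libraries were intersected, stretches of more than 200 bp were kept, and the stretches of the 3 conditions were merged into 41308 consensus peaks. A member is a consensus peak that holds a stretch from 21% O2 and a stretch from <0.1% O2 and none from 1% O2. There were 465 such peaks, or 1.13% of all consensus peaks, beside 28197 found in every condition. The opposite pattern, peaks of 21% and 1% O2 that were missing only at <0.1% O2, held 1133 peaks.

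GL261 is a mouse glioma cell line. All libraries came from GL261 cells stably expressing pEGFP-N1, a plasmid that encodes a green fluorescent protein. Cells were kept for 16 h in normoxia (21% O2), at 1% O2 or at <0.1% O2 and fixed with formaldehyde before lysis, while still in hypoxia for the hypoxic groups, and each condition had 2 libraries, 6 in all. Nothing in the labels says that the replicates came from separate cultures, so the spread between them may be technical.

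Accessible chromatin is DNA that is not tightly packed into nucleosomes, and the Tn5 transposase used in ATACseq inserts preferentially there. Promoters of active genes are usually accessible in many cell types, whereas distal enhancers tend to be specific to cell type and state and carry motifs of factors such as AP-1 and TEAD. Oxygen reaches chromatin both through the HIF transcription factors, which are stabilised in hypoxia, and through oxygen-dependent histone demethylases.

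The peak lists held between 33006 and 43554 peaks per library. The mean fragment coverage of the genome, recovered from the lists, was 2.16 and 2.36 in normoxia, 2.93 and 2.99 in moderate hypoxia and 3.35 and 3.18 in severe hypoxia, so the 1% O2 libraries were deeper than the normoxic ones and shallower than the severe ones. Of 12 genes used as markers of glioma and glial cells, 9 had a peak within 2000 bp of a start site in both normoxic libraries, among them *Nes*, *Vim*, *Sox2*, *Gfap* and *Olig2*, and *Sox9*, *Fabp7* and *Egfr* did not. Of 9 markers of other cell types, *Krt8* (epithelial) and *Tubb3* (neuronal) had one, and the immune and endothelial markers *Ptprc*, *Cd68*, *Aif1*, *Pecam1* and *Cdh5* did not. *Pecam1* had a peak in all 4 hypoxic libraries.

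The sequences of 6 members with no peak at all in either 1% O2 library are given first, as examples that differ in setting. Each is the 200 bp centred on the summit of the highest peak, read from the plus strand of GRCm38.p6 (the RefSeq assembly of the same build as mm10). Capitals mark matches on either strand to the motifs of AP-1 (TGANTCA), TEAD (GGAATG), SOX (AACAAT) and C/EBP (TTGCNNAA). A match is a string of letters, not a measured binding site.
*Hist1h4n* promoter, chr13:21831416-21831615: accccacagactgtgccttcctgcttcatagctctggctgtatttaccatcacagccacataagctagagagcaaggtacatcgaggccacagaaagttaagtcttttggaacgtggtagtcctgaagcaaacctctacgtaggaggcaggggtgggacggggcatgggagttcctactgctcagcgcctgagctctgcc
Intergenic, nearest coding gene *Bex3*, chrX:136306349-136306548: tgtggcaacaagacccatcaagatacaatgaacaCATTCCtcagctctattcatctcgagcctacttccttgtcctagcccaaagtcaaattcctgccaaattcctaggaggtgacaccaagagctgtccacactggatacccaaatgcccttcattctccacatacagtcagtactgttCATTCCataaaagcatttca
Intergenic, nearest coding gene *Areg*, chr5:91110358-91110557: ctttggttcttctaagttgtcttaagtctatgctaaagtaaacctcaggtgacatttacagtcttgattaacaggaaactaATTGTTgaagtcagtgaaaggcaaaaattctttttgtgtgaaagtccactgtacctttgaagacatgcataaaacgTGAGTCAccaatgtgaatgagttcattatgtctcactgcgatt
Intron of *Pkm*, chr9:59659807-59660006: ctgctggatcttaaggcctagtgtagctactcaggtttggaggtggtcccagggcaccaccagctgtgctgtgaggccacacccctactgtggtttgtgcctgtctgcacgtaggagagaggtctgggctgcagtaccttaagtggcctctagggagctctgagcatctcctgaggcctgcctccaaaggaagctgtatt
Intergenic, nearest coding gene *Noct*, chr3:51197392-51197591: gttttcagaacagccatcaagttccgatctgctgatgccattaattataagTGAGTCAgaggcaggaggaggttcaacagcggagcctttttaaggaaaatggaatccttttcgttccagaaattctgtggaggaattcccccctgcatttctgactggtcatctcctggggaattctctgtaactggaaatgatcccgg
Intergenic, nearest coding gene *Osbpl2*, chr2:180115296-180115495: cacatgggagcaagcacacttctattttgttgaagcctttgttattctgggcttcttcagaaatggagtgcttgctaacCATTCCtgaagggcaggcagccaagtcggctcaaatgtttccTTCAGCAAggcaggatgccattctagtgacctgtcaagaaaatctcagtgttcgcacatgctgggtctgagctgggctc
The window near *Bex3* held 2 TEAD matches on the minus strand, the window near *Areg* an AP-1 and a SOX match, that near *Noct* an AP-1 match and that near *Osbpl2* a TEAD and a C/EBP match. The windows at *Hist1h4n* and in *Pkm* held none of the 4.

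For most members, missing at 1% O2 did not mean that no peak was called there. Of the 465 members, 103 (22.2%, exact binomial 95% interval 18.5 to 26.2) had no overlapping peak in either 1% O2 library. A further 329 (70.8%) had a peak in 1 of the libraries and none in the other, 176 in replicate 1 and 153 in replicate 2. The remaining 33 (7.10%) had a peak in both, of which 29 shared a stretch of at most 200 bp (55 to 197 bp) and 4 shared no base. The peaks missing only at <0.1% O2 divided much alike, with 22.0% lacking a peak in both severe libraries and 74.1% lacking it in 1. The peaks of 21% O2 only more often lacked a peak in both 1% O2 libraries (40.2%). The intervals cover counting error only, and since the presence of peaks defined the groups these shares are a description.

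The members were low peaks. Relative height is the fragment pileup at the summit divided by the mean coverage of the genome, so that libraries of different depth can be set side by side. Its median over the 465 members was 9.73 and 10.6 at 21% O2 (10.2 ± 0.62, SD, n = 2) and 9.86 and 8.80 at <0.1% O2 (9.33 ± 0.75, SD, n = 2). In fragments, the median summit held 21 and 25 at 21% O2 and 33 and 28 at <0.1% O2. Peaks found in every condition had medians of 28.7 and 34.3 at 21% O2 and 29.9 and 26.1 at <0.1% O2, about 3 times as high. Where a 1% O2 library did call a peak on a member, its median height was 9.56 in replicate 1 (209 members) and 8.69 in replicate 2 (186 members). The former lay within the range of the other 4 medians and the latter just below it.

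**Figure D1:**
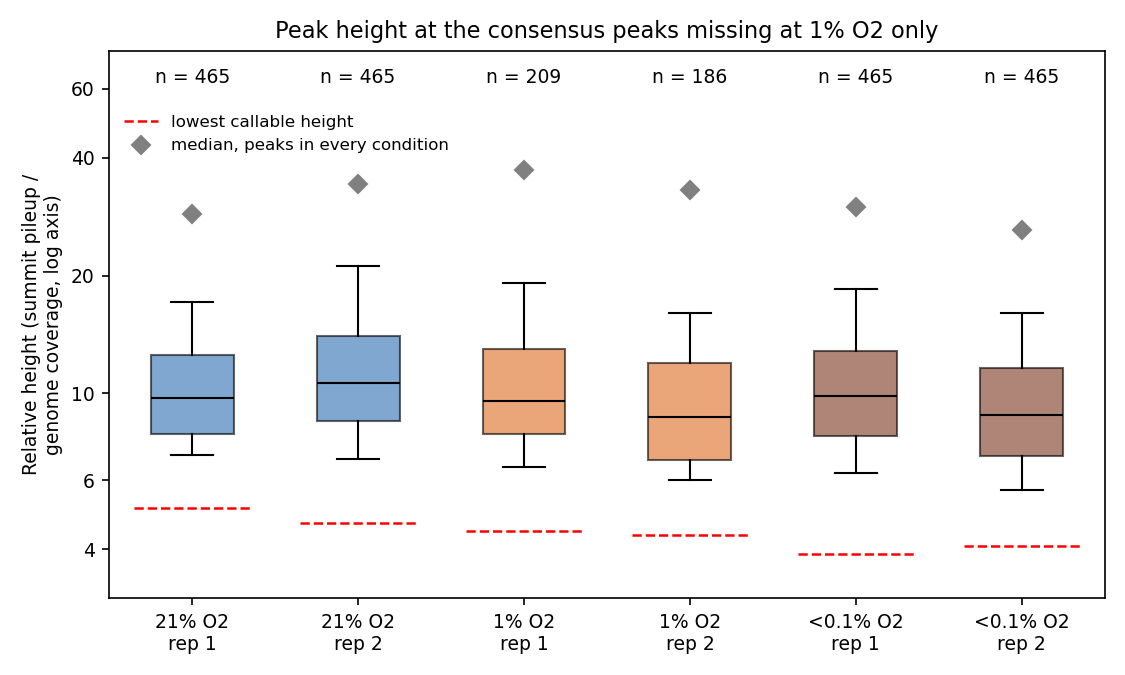
Relative height (summit pileup divided by genome coverage, log axis) of the members in each library, with boxes for the quartiles, a line for the median and whiskers from the 10th to the 90th percentile over the members with a peak there. Dashed lines mark the lowest callable height over a background equal to the genome coverage and diamonds the median of peaks found in every condition: member medians of 8.69 to 10.6 sit between the lines, at 3.88 to 5.09, and the diamonds.

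In the 329 members with a peak in 1 of the 1% O2 libraries, that peak was of ordinary height. It lay within the range of the 4 libraries at 21% and <0.1% O2 in 179 members (54.4%), above all 4 in 59 (17.9%) and below all 4 in 91 (27.7%). The median ratio to the mean of the 4 libraries was 0.98 for replicate 1 and 0.92 for replicate 2. The other 1% O2 library has no listed value at these sites, since a peak list does not record signal where no peak was called.

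The members nearest to the 200 bp limit show how narrow it was. Just inside it, the peak at the start of *Bcorl1*, which encodes a transcriptional corepressor (chrX:48341425-48341957), shared 197 bp between the 1% O2 replicates, and an intergenic peak 24121 bp from the start of *Fbxo4* (chr15:3955033-3955452) shared 195 bp. The *Bcorl1* peak stood at 10.2 and 11.4 times the genome coverage at 21% O2, 11.3 and 7.68 times at 1% O2, and 8.66 and 6.92 times at <0.1% O2. Just outside the limit, a peak 4300 bp upstream of *Tmem139* (chr6:42257290-42257670) shared 202 bp at 1% O2 and a peak 28017 bp from *Utp23* (chr15:51905759-51906039) shared 203 bp. The *Tmem139* peak, at 14.0 and 15.4 at 1% O2, was higher there than in either normoxic library (11.1 and 12.3).

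The height that a 1% O2 library needed for a call can be computed from its own weakest listed p-value. Over a background equal to the genome coverage it was 13 fragments in both libraries, or 4.44 and 4.34 times the coverage. With the local background that each member had in the other 4 libraries, the median requirement was 4.68 times the coverage. Taken for each member as a share of its own mean height, its median was 51.4%. In 456 of the 465 members, and in 102 of the 103 with no peak at 1% O2, the lowest of the 4 heights was above it. This count is a description that the choice of members largely fixed. Each of the 4 heights had itself passed a limit in its own library. The limits of the normoxic libraries, 5.09 and 4.66, were above those of the 1% O2 libraries. The limits of the severe libraries, 3.88 and 4.09, were below those of the 1% O2 libraries. The part of the calling limit in the missing peaks was not tested. Only the single highest position is compared, so the extent that the caller also requires is not covered.

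The 8 tallest members without a peak at 1% O2 lay close to other peaks. Their mean local background was 6.32 to 14.2 times the genome coverage, against medians of 1.00 to 1.07 over the members, and a peak found in every condition lay 457 to 4216 bp away. That peak was higher than the member in all 4 libraries except at *Osbpl2*, where it stood at 28.2 and 30.5 at 21% O2 and at 40.6 and 30.5 at <0.1% O2, below the member in each. Such a background raises the height needed for a call at 1% O2 to between 13.7 and 24.7 times the coverage.

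The tallest lay within 2000 bp of annotated starts of *Snord47* and *Snord80*, small nucleolar RNAs that guide methylation of ribosomal RNA (chr1:161039468-161040474). Its summit held 150 and 219 fragments at 21% O2 and 78 and 44 at <0.1% O2, relative heights of 69.5 and 92.9 against 23.3 and 13.8. The severe libraries were thus below both normoxic ones by a wide margin, with means of 81.2 ± 16.5 and 18.6 ± 6.70 (SD, n = 2), and no peak was called at 1% O2. The local background was lower as well, at 16.7 and 17.5 against 8.39 and 5.18. The folds over it were 4.07 and 5.22 against 2.72 and 2.58. This was also the single member of the 103 whose lowest height, 13.8, fell under the requirement computed for 1% O2, 21.7. The peak 3978 bp away was found in all 6 libraries at heights from 110.0 to 192.

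A member inside *Klf4*, which encodes a zinc finger factor of pluripotency and differentiation, lay 1708 bp from the start, with an exon at its summit (chr4:55530255-55530758). Its relative height was 41.7 and 48.3 in normoxia but 25.7 and 25.1 in severe hypoxia, where both libraries were lower. The neighbouring peak, 1392 bp away, was also lower in both severe libraries, with 65.8 and 67.8 in normoxia, higher values of 90.2 and 74.8 in moderate hypoxia, and 46.3 and 43.7 in severe hypoxia.

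In an intron of *Pkm*, the gene of the glycolytic enzyme pyruvate kinase and a known HIF target, a member lay 3098 bp from the start (chr9:59659671-59659990). It stood at 29.6 and 36.9 at 21% O2 and at 40.9 and 38.7 at <0.1% O2. Severe hypoxia was higher than both normoxic libraries here, with means of 39.8 ± 1.60 and 33.3 ± 5.13 (SD, n = 2). The neighbouring peak 2737 bp away reached 116 and 162 in normoxia, 159 and 143 in moderate hypoxia and 142 and 126 in severe hypoxia.

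Of the remaining 5, the members near *Trib1*, a pseudokinase gene (chr15:59754930-59755209), and *Noct*, a gene with circadian expression (chr3:51197155-51197605), were lower in both severe libraries. The *Trib1* member, 106277 bp from the start, went from 32.4 and 35.6 to 25.4 and 22.0, and the *Noct* member, 26842 bp upstream, from 32.4 and 37.3 to 24.2 and 17.0. The members at the promoters of *Ugp2*, whose enzyme makes UDP-glucose for glycogen (chr11:21372350-21372641), and of the immediate early gene *Csrnp1* (chr9:119981386-119981841) were also lower in both, from 36.1 and 31.4 to 22.1 and 24.5 and from 24.5 and 30.5 to 19.4 and 19.2. The fold over local background did not follow there: it overlapped at *Ugp2*, with 2.71 and 2.00 against 2.42 and 2.95, and at *Csrnp1* it was higher in both severe libraries, with 3.84 and 3.96 against 3.29 and 3.39. The member 3698 bp upstream of *Osbpl2*, a gene of lipid transfer (chr2:180115191-180115608), overlapped between the conditions, at 34.7 and 44.9 against 41.2 and 35.8. Its folds over local background were higher in both severe libraries, with 2.53 and 2.56 at 21% O2 against 2.87 and 2.94.

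**Figure D2:**
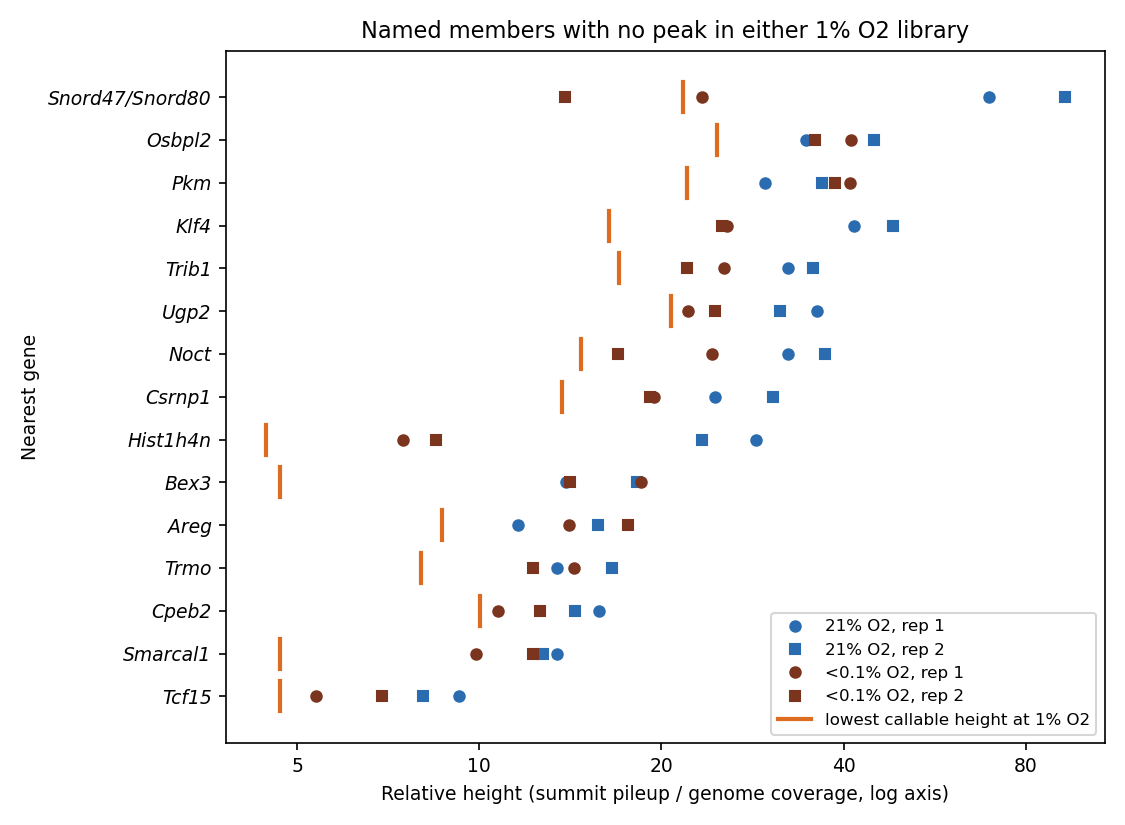
Relative height (log axis) in the 4 libraries at 21% and <0.1% O2 of 15 members without a peak at 1% O2, the 8 tallest and then the tallest others at coding promoters (3) and in intergenic positions (4), labelled by the gene at the promoter or the nearest coding gene. The vertical bar is the lowest callable height at 1% O2 computed with each member's own local background: it lies below all points except 1 severe library at *Snord47*/*Snord80*, and is far to the left of the points at *Hist1h4n*, *Bex3* and *Smarcal1*.

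Some members stood alone, over a background near the genome average. The promoter member at *Hist1h4n*, a replication-dependent histone H4 gene, lay 302 bp from its start and also within 2000 bp of the H2A and H2B genes *Hist1h2ap* and *Hist1h2br* (chr13:21831366-21831894). Its summit held 62 and 55 fragments at 21% O2 and 25 and 27 at <0.1% O2, relative heights of 28.7 and 23.3 against 7.47 and 8.49. No peak was called in either 1% O2 library, and the nearest stretch shared at 1% O2 was 18906 bp away. Histone genes come in near-identical copies, and the authors kept reads with a high mapping quality, so fragments that match several copies are not counted.

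An intergenic member on chromosome X, 35346 bp from the start of *Bex3*, a gene of the brain-expressed X-linked family (chrX:136306121-136306724), had 30 and 43 fragments at 21% O2 and 62 and 45 at <0.1% O2. Relative to coverage these were 13.9 and 18.2 against 18.5 and 14.1, which overlap. The folds over local background were higher in both severe libraries, with 9.81 and 10.8 at 21% O2 against 12.8 and 11.0. The lowest callable height at 1% O2 was 4.68, or 28.9% of the mean of the 4 libraries, and the nearest 1% O2 stretch was 60827 bp away.

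A similar member lay 51726 bp from *Smarcal1*, the gene of a helicase that anneals DNA strands at stalled replication forks (chr1:72635341-72635642). It stood at 13.4 and 12.7 at 21% O2 and 9.86 and 12.3 at <0.1% O2. The member 28993 bp upstream of *Areg*, which encodes the EGF receptor ligand amphiregulin (chr5:91110161-91110606), had 11.6 and 15.7 against 14.0 and 17.6, over a background of 3.27. The groups overlapped at *Areg* and the severe libraries were the lower ones near *Smarcal1*, where the folds over local background overlapped.

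Of the other 3 named, the member 125623 bp from *Cpeb2*, a regulator of translation (chr5:43359086-43359485), stood at 15.7 and 14.4 at 21% O2 and 10.8 and 12.6 at <0.1% O2. The promoter member of *Trmo*, a tRNA methyltransferase gene (chr4:46390411-46390711), had 13.4 and 16.5 against 14.3 and 12.3. The promoter member of *Tcf15*, a basic helix-loop-helix factor of the paraxial mesoderm (chr2:152141979-152142426), had 9.26 and 8.06 against 5.38 and 6.92. The severe libraries were the lower ones at *Cpeb2* and *Tcf15*, with overlapping folds at *Cpeb2*, and overlapped with normoxia at *Trmo*. The folds at *Trmo* were higher in both severe libraries, with 3.84 and 4.05 at 21% O2 against 5.18 and 5.23.

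Promoters held a small part of the members. Within 2000 bp of a start site lay 66 members, 34 at a protein-coding promoter and 32 at promoters of other genes only. Of the 34, 6 had no peak at 1% O2, 22 had a peak in 1 library and 6 in both. In all, 12 members contained a start site. The coding genes, besides those described above, were *Agps*, *Aloxe3*, *Ccdc28a*, *Cntn6*, *Dlgap4*, *Eaf1*, *Efna2*, *Enpp2*, *Epb41*, *Fcho1*, *Gimap9*, *Hlx*, *Lpar4*, *Mettl6*, *Nptx1*, *Pbk*, *S100b*, *Sapcd2*, *Slc39a14*, *Sox6*, *Synpo*, *Tm6sf1*, *Usp50*, *Vstm5*, *Vwa1*, *Zmym5* and 4 predicted genes.

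Among the promoters of noncoding genes, those of *Sox2ot*, the transcript that overlaps *Sox2*, and of *Malat1*, an abundant nuclear RNA, are given here as examples chosen after their values were seen. The *Sox2ot* member (chr3:34196528-34196816) had no peak at 1% O2 and stood at 7.87 and 10.6 at 21% O2 and 5.68 and 6.29 at <0.1% O2, lower in both severe libraries. The *Malat1* member (chr19:5802391-5802778) had a peak of 21.4 in 1% O2 replicate 2 only, beside 19.5 and 18.7 at 21% O2 and 21.5 and 19.2 at <0.1% O2.

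Genes of the pathways listed for comparison were seldom near a member. None of 13 helicases and other R-loop factors named by the study, 15 AP-1 genes, 22 unfolded protein response genes or 29 interferon genes had a member at the promoter or was the nearest coding gene within 100 kb of one. Of all 21924 protein-coding genes, 350 (1.60%) were nearest to a member within 100 kb and 39 (0.178%) had a member at the promoter. At the share of 1.60%, a list of this length would hold less than 1 gene. Among 36 HIF targets *Pkm* was nearest to a member, and among 39 axon guidance and adhesion genes *Cdh2*. Of 35 matrix and TGF-beta genes, *Itgav* and *Smad6* were. Of 30 glial and glioma identity genes, *S100b*, *Slc1a3* and *Id3* were (10.0%), and *S100b* was the 1 gene of any list with a member at the promoter.

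The *S100b* member lay 1729 bp into the gene, which encodes a calcium-binding protein of astroglia (chr10:76255582-76255894). It stood at 26.4 and 40.7 at 21% O2, 35.2 and 39.0 at <0.1% O2, and 45.4 in 1% O2 replicate 1, the highest of all 5 values. Its local background was 8.13, and replicate 2 at 1% O2 had no peak there. Taller peaks within 2000 bp of an *S100b* start site were called in all 6 libraries. Their relative heights ran from 68.8 to 100.4, so the promoter itself was not without a peak in moderate hypoxia. The member 65228 bp upstream of the glutamate transporter gene *Slc1a3* (chr15:8775992-8776422) had 10.2 and 10.6 at 21% O2, 10.2 in replicate 1 at 1% O2, and 13.1 and 13.2 at <0.1% O2. The member upstream of *Id3*, an inhibitor of helix-loop-helix factors (chr4:136122989-136123626), had a peak in both 1% O2 libraries, at 7.51 and 7.35, against 8.80 and 8.90 at 21% O2 and 7.77 and 6.92 at <0.1% O2.

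The other members nearest to a listed gene, apart from that in *Pkm*, had a peak in 1 of the 1% O2 libraries. That in *Smad6*, an inhibitor of BMP signalling, had 5.12 at 1% O2 beside 7.41 and 7.21 at 21% O2 and 9.26 and 8.80 at <0.1% O2. That upstream of the integrin gene *Itgav* had 14.0 at 1% O2, within the range of 11.1 to 16.4 of the other 4 libraries. That upstream of *Cdh2*, which encodes N-cadherin, had 16.0 at 1% O2, above the 13.9 and 15.7 at 21% O2 and the 11.4 and 11.6 at <0.1% O2.

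In position the members resembled distal elements. By the order promoter, untranslated region, exon, intron and intergenic, 14.2% were at a promoter (95% interval 11.2 to 17.7), 32.7% in introns, 4.52% in exons and 47.3% intergenic (42.7 to 52.0). Over all consensus peaks 36.5% were at a promoter and 29.97% intergenic, and over the peaks missing only at <0.1% O2 30.9% (28.2 to 33.7) and 32.1%. The peaks of 21% O2 only had 21.2% (18.4 to 24.3) and 42.9%. The interval of the members' promoter share lay below those of both like groups. The peaks of <0.1% O2 only, at 11.9%, and of both hypoxia levels only, at 14.3%, had promoter shares near that of the members.

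**Figure D3:**
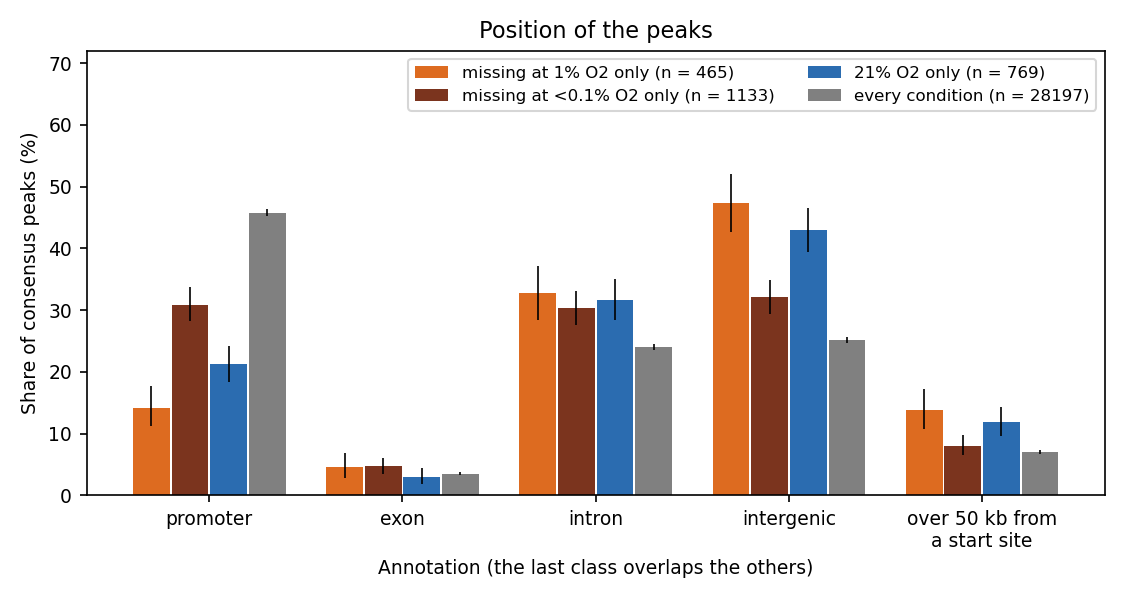
Share of consensus peaks in each annotation class (bars, with exact binomial 95% intervals for counting error) for the members and 3 other groups of consensus peaks. Of the members, 14.2% were at a promoter and 47.3% intergenic, against 45.8% and 25.2% of the peaks found in every condition.

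The median distance to a start site was 12971 bp for members and 6515 bp for all consensus peaks, and 13.8% of members were more than 50 kb from any start site, against 8.59%. Of neighbouring members, 1 pair lay within 10 kb and 14 pairs within 100 kb, and the members spread over all chromosomes, from 37 on chromosome 10 to 5 on chromosome 19 and 1 on Y. The nearest stretch called at 1% O2 was a median of 12842 bp away, and 8.39% of members had one within 1000 bp.

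The members were less rich in GC than the consensus peaks as a whole. Their median GC content was 45.5% (95% interval of the median 44.9 to 46.3), against 51.3% over all consensus peaks, 52.3% (51.7 to 52.9) over peaks missing only at <0.1% O2 and 48.5% (47.8 to 49.1) over peaks of 21% O2 only. Peaks of <0.1% O2 only, at 46.2%, were close. Their median width of 411 bp was that of the peaks missing only at <0.1% O2 (413 bp), and peaks found in every condition were wider (829 bp). In 6.88% of members over 50% of the bases were annotated as repeats, against 2.78% of all consensus peaks and 5.21% of those missing only at <0.1% O2. The peaks of 21% O2 only (6.76%) and of <0.1% O2 only (6.31%) were near the members.

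Of the 18 motifs searched in the 200 bp at the summit, that of TEAD, the DNA-binding partners of YAP and TAZ, was among those more frequent in members than in the whole. It was in 98 members (21.1%, 95% interval 17.5 to 25.1), against 12.9% of all consensus peaks, 11.7% of those missing only at <0.1% O2 (9.92 to 13.8) and 13.4% of those of 21% O2 only. Peaks of <0.1% O2 only had it in 18.9%. Base composition moves with such counts, so shares were also taken among windows with 40 to 50% GC. There TEAD was in 22.2% of 261 members (17.3 to 27.8) and 16.4% of all consensus peaks. That range gave 19.6% for peaks of <0.1% O2 only, 15.4% for 21% O2 only and 13.9% for those missing only at <0.1% O2.

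The motif of AP-1, dimers of Fos and Jun proteins, was in 20.4% of members (16.9 to 24.4) and 22.1% of all consensus peaks. It was in 12.8% of peaks missing only at <0.1% O2 and in 35.3% of peaks of <0.1% O2 only. Within the same GC range it was in 22.6% of members (17.7 to 28.2) and 33.3% of all consensus peaks, and in 17.3% of peaks missing only at <0.1% O2, 14.8% of those of 21% O2 only and 25.5% of those of 1% O2 only. The motifs of SOX factors (12.9% against 7.58%) and C/EBP (11.0% against 7.09%) were also more frequent in members than in the whole, but not within the GC range, where SOX was at 12.6% and 12.2% and C/EBP at 9.96% and 10.3%. The GC-rich SP/KLF motif (GGGCGG) was in 7.53% of members and 24.0% of all, and the partial CTCF motif (AGGNGGC) in 13.5% and 22.5%. The core of the HIF binding site (ACGTG) was in 8.39% of members (6.03 to 11.3) and 13.1% of all, and at like GC in 8.43% and 10.0%.

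**Figure D4:**
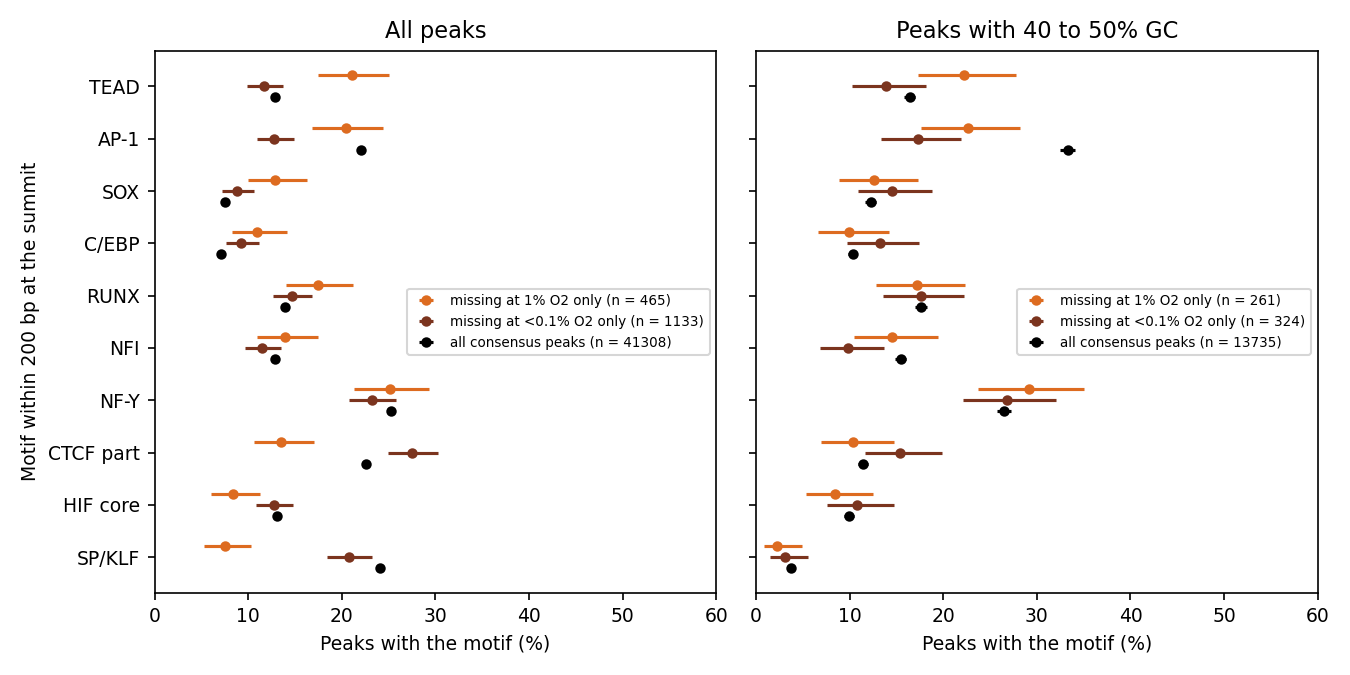
Share of peaks with each of 10 of the motifs in the 200 bp at the summit, with exact binomial 95% intervals, for all peaks (left) and for those whose window holds 40 to 50% GC (right). TEAD was at 21.1% in the members against 12.9% of all consensus peaks, and at 22.2% against 16.4% on the right, so that this difference, like those for SOX, C/EBP, CTCF and SP/KLF, was smaller on the right, while that for AP-1 was larger (20.4% against 22.1% on the left and 22.6% against 33.3% on the right).

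The members were present at both ends of the oxygen series, so their height in severe hypoxia could be set against normoxia. The relative heights of the severe libraries lay below both normoxic ones in 166 members (35.7%, against 41.4% of the 28922 consensus peaks with a peak in all 4 libraries) and above both in 66 (14.2%, against 20.9%), and overlapped in 233. A fall by more than 2-fold was seen in 15 members (3.23%, against 5.14%), *Hist1h4n* and *Snord47*/*Snord80* among them, and a rise by more than 2-fold in none (against 2.01%). The median log2 ratio was -0.13 over members and -0.17 over all peaks of the comparison.

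Relative accessibility was compared by the percentile rank of the fold over local background among the same 28922 peaks. The members' median rank was 14.8 and 15.9 at 21% O2 (15.4 ± 0.72, SD, n = 2) and 13.4 and 12.2 at <0.1% O2 (12.8 ± 0.85), so most sat at the low end, which leaves little room to fall. A call required that the ranks of the 2 conditions did not overlap and that their means differed by 10 points or more. The smallest p that an exact permutation of 2 and 2 libraries allows is 0.33, so none is given. Lower calls were made for 77 members (16.6%, 95% interval 13.3 to 20.3), against 19.8% of all ranked peaks, and higher calls for 54 (11.6%, 8.85 to 14.9), against 19.3%. The median change was -0.82 points, against -0.17. Among the 103 without a peak at 1% O2, 19 were called lower and 9 higher.

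When the summit pileup was ranked in place of the fold, 45 members were lower (9.68%, against 21.2%) and 33 higher (7.10%, against 20.4%), with a median change of -0.51 points, against -0.18. When folds were ranked within each whole peak list, 67 members were lower (14.4%, against 12.8%) and 92 higher (19.8%, against 25.7%), with a median change of 1.63 points, while the median of all ranked peaks moved by 2.59 points. On this scale the balance of all ranked peaks turned as well. Without normoxic replicate 1 or 2 the median over the members then chosen was 0.58 or 0.22 points, and with lists cut to equal length 0.066. The sign of the members' median thus depended on the scale, the libraries and the list lengths. With the trend of rank on GC content subtracted, 19.4% of members and 19.4% of all ranked peaks were lower, 10.1% and 19.3% were higher, and the median changes were -2.38 and -0.06 points.

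**Figure D5:**
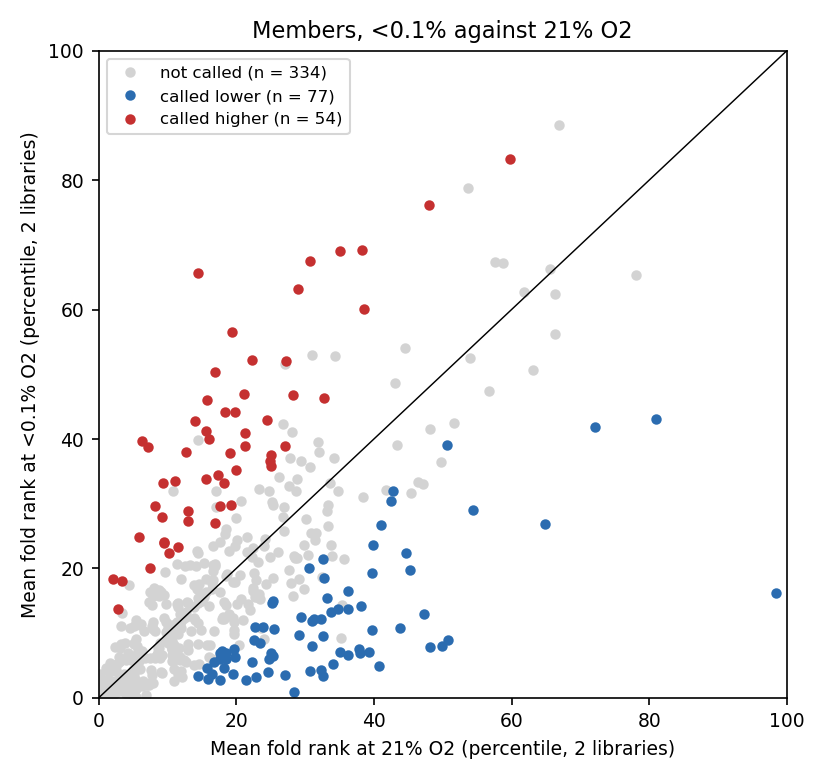
Mean percentile rank of the fold at 21% O2 and at <0.1% O2 (2 libraries each) for the 465 members, with 77 called lower, 54 called higher and the others in grey. Most points lie in the lower left corner, and the lower call farthest to the right is *Hist1h4n*, with ranks of 99.9 and 97.0 at 21% O2 and 11.8 and 20.7 at <0.1% O2.

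The lower call with the largest change was *Hist1h4n*, by -82.22 points. Next came a member at the small RNA gene *Gm25962*, 22865 bp upstream of *Metap2* (chr10:93914067-93914497), with ranks of 40.4 and 59.5 at 21% O2 and 9.30 and 6.67 at <0.1% O2. Its relative height of 9.91 in 1% O2 replicate 1 was the lowest of its 5 values, the others being 21.8 and 31.8 at 21% O2 and 14.0 and 12.9 at <0.1% O2. The third was an intergenic member 358796 bp from *Cenpc1*, a centromere gene (chr5:85706143-85706787), with heights of 12.0 and 17.0 at 21% O2, 8.35 in 1% O2 replicate 2, and 7.77 and 5.66 at <0.1% O2.

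The 3 higher calls with the largest change all had a 1% O2 peak that was too narrowly shared or seen in 1 library. In an intron of *Epha6*, an ephrin receptor gene (chr16:60047280-60047672), the height went from 7.41 and 8.90 at 21% O2 to 16.4 and 13.5 at <0.1% O2, with 11.4 in 1% O2 replicate 2, and the rank rose by 51.21 points. In an exon of *Lpcat3*, a phospholipid acyltransferase gene (chr6:124702730-124703121), it went from 13.9 and 14.8 to 18.5 and 15.7, with 20.8 in 1% O2 replicate 1. This call was not made when the pileup was ranked, where the change was 8.23 points in place of 37.07. In an intron of *Nkain2*, which encodes a protein that interacts with the sodium pump (chr10:31742539-31742830), both 1% O2 libraries had a peak, at 19.1 and 16.7, above the 10.2 and 11.0 of normoxia and the 16.4 and 14.1 of severe hypoxia. These shared 177 bp, which was too short for a stretch. By its heights this last member was most accessible at 1% O2, although it counts as missing there.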

How the data were processed

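ATACseq was measured in 6 GL261 libraries. The authors trimmed reads, aligned them to mm10 with Bowtie2 2.2.5, removed duplicates and called peaks at a q-value limit of 0.001 in MACS2 2.1.1.2, each library on its own. A blacklist filter is stated in the methods; the peak numbering in the lists has no gaps, so whether it was applied to them is unclear, and it was not repeated. The deposited lists hold, as the authors' caller wrote them, the fold (a ratio over local background), the −log10 p-value and the −log10 q-value, with the summit offset. Whole-number summit pileups and backgrounds were recovered from fold and p for 100% of peaks; the smallest background was read as genome coverage. Reads per library are not used here, so depth is known only as this coverage.

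Consensus peaks were built from shared stretches over 200 bp, 1 reading of the overlap rule in the study's methods; the study's own merged set was not used here and may be built differently. Promoters are within 2000 bp of a GENCODE M21 start site; GC and motifs came from GRCm38.p6. Lowest callable heights used each library's weakest listed p under a Poisson model. Calls across the ranked peaks need no overlap of the groups and 10 points. Members, gene lists and alternatives were chosen with earlier results of these data known. Named were the 8 tallest members without a 1% O2 peak, further ones at coding promoters (up to 6; 3 existed) and intergenic (4), the 3 largest calls in each direction, listed genes at promoters, and 2 peaks on each side of the 200 bp limit; *Id3*, *Slc1a3*, *Smad6*, *Itgav* and *Cdh2* come from the list counts. Steps were tested on simulated data. Python 3.11.15, numpy, pandas, scipy and pysam were used.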

Additional observations from a re-analysis of the deposited data

How the results depend on the processing

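The number of members rests on every library: without a normoxic library it was 999 (replicate 1) or 742 (replicate 2), without a 1% O2 library 279 or 256, and without a severe one 594 or 752, since 1 library then sets a condition's peaks. Over these 6 settings the lower calls ranged from 40 to 189 (15.6% to 21.9% of members, against 19.8% to 24.3% of all ranked peaks), the higher calls from 28 to 212 (10.0% to 21.2%, against 19.3% to 23.0%) and the median rank change from -1.66 to 0.58. Without normoxic replicate 1 the balance turned, with 189 lower (18.9%, against 23.2%) and 212 higher (21.2%, against 22.1%). Members without a 1% O2 peak ranged from 21.7% to 25.9% (not computable without a 1% O2 library), the promoter share from 13.3% to 15.7%, median height from 8.80 to 10.2 at 21% O2 and from 8.49 to 9.33 at <0.1% O2, GC from 44.4% to 46.5% and AP-1 from 16.8% to 24.5%. Lists of equal length gave 908 members, 35.5% of them without a 1% O2 peak, 118 lower (13.0%, against 20.6%) and 141 higher calls (15.5%, against 19.8%), a median change of 0.066 (all -0.28) and heights of 12.1 and 12.2. Stretches over 400 bp gave 2.07% without a 1% O2 peak, 18.4% at promoters, heights of 14.8 and 13.6 and AP-1 in 26.2%. Promoter windows of 500 and 1000 bp gave 5.38% and 8.82%. Ranking the pileup gave 45 lower and 33 higher calls, ranking within whole lists 92 higher and a median change of 1.63, a limit of 20 points 34 lower (7.31%, against 8.73%) and 25 higher (5.38%, against 8.78%), and subtracting the GC trend a median of -2.38 (all -0.06), with lower calls at 19.4% of members and of all. Pileup over local background gave medians of 6.05 and 5.95, AP-1 in 400 bp windows 28.4% and GC in 200 bp windows 46.5%. The cause of these shifts was not tested beyond what each setting's construction shows. Same-numbered replicates share only a number (correlation of deviations -0.04 over 28922 peaks): with the replicate block the calls were 83 lower (17.8% of members, against 20.8% of all ranked peaks) and 58 higher (12.5%, against 20.2%) with a median of -0.82, and with the GC trend also subtracted -2.38 (20.6% lower, against 20.4%). Of the named members' rank changes over the alternatives, 130 stayed within the replicate spread and 31 moved beyond it. The sign turned in 20, all of them at members that were not called (7 with the pileup ranked), and at no called member. Depth is known only as coverage, and a list gives no signal where no peak was called.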
